A study of Homo sapiens with 3 samples.

Results

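Granins are acidic proteins that aggregate in the trans-Golgi network with calcium, help to form dense-core secretory granules and are cut into signalling peptides. Secretagogin is a cytosolic calcium-binding protein of islet and other neuroendocrine cells and PTPRN (IA-2) is a protein of the granule membrane, so both were described with the granins although neither belongs to that family. The 7 genes were CHGA, CHGB, SCG2, SCG3, VGF, SCGN and PTPRN, taken by symbol from the 33538 genes of each count matrix. They were measured by droplet single-cell RNA sequencing (10x Genomics) in beta cell differentiations of the H1 line, which is an established line of human embryonic stem cells. There were 3 libraries, namely unedited cells (WT), PAX6+/- cells (HET) and PAX6-/- cells (KO), with 1 library for each genotype. PAX6 is a transcription factor of the islet, eye and brain. The sources used here do not give the age of the cultures, the position of the lesion or the number of clones behind each line. Genotype and library are therefore the same thing in every comparison, no difference has a replicate check, and every interval below is a 95% interval for counting error only.

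The hormone classes were set by transcript counts. A cell was scored for INS (insulin), GCG (glucagon), SST (somatostatin) or GHRL (ghrelin) at 25 or more per 10000 unique molecular identifiers (UMIs, each standing for 1 captured transcript), and for TPH1, the enzyme that starts serotonin synthesis and marks enterochromaffin cells, at 3 or more UMIs. After filtering there were 7969 WT, 7791 HET and 8082 KO cells, of which 1014, 358 and 561 met at least 1 criterion and are called hormone-positive. Cells meeting 1 criterion formed the classes INS only (272 WT, 85 HET and 79 KO cells), GCG only (108, 14 and 6), SST only (27, 6 and 7), GHRL only (22, 40 and 128) and TPH1 only (81, 40 and 219). A further 342, 104 and 20 cells met INS and GCG alone, and 162, 69 and 102 met other combinations. Levels are given for classes of at least 20 cells, which leaves GCG only and SST only to the WT library. They are counts for each 1000000 UMIs (CPM) of the summed class, scaled with TMM factors.

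The classes were compared by marker genes. TPH1 only cells held FEV, a transcription factor of serotonin-producing cells, at 860 CPM in WT, 828 in HET and 733 in KO without scaling factors, against 236, 164 and 331 in INS only cells. The 7 epsilon cell markers, GHRL among them, summed to 40932, 25719 and 27324 CPM in GHRL only cells. In INS only cells they summed to 353, 561 and 921 CPM. INS only cells are held below the GHRL limit that sets the GHRL only class, so these sums do not check that class. MAFA, a factor of mature beta cells, had 20, 4 and 7 UMIs in all INS only cells of the 3 libraries, and IAPP was at 363 and 2.55 CPM in WT and HET with no UMI in KO. The INS only class is therefore named by its rule and not as mature beta cells. PAX6 transcripts were present in the KO library, at 560 CPM (513 to 610) in its INS only cells against 417 (396 to 438) in WT and 343 (311 to 378) in HET, so RNA does not check the genotype.

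The total counts were 140068492 UMIs in WT, 136834433 in HET and 145948590 in KO, and the kept cells had median counts of 13894, 13638 and 14811.5 UMIs. Median mitochondrial shares in hormone-positive cells were 6.29%, 8.43% and 9.06%, and the part of this difference in the results was not tested. The libraries shared 26 to 43 cell barcodes in pairs. Cells in no hormone class and below the limit for endocrine transcription factors, called other cells, were used for comparison. CHGA stood at 206 CPM in WT, 86.4 in HET and 104 in KO there, SCG3 at 10.6, 3.46 and 3.62 CPM, and SCGN at 20.2, 22.6 and 25.4 CPM. The other cells included 60 WT, 15 HET and 27 KO cells with CHGA at 25 or more per 10000 UMIs, so these levels are not a pure background. After thinning each cell to 3000 UMIs, 2.32%, 1.01% and 0.925% of other cells had an SCG3 UMI, against 91.2%, 86.7% and 78.3% of INS only cells (without thinning 8.44%, 3.56% and 3.76% against 94.5%, 96.5% and 87.3%). Median depths were 14169, 13561 and 15136 UMIs in other cells and 12904, 12862 and 12364 in INS only cells.

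CHGA, chromogranin A, the granin used as a general marker of neuroendocrine cells, held the largest share of the UMIs of the 7 genes in all 17 hormone class sums of at least 20 cells. Its share ran from 59.3% (58.8 to 59.8) in INS only cells of WT to 79.1% in KO cells with other combinations. These are shares of captured UMIs, not corrected for transcript length, so they are read between classes and not as numbers of transcripts. The 7 genes together made up 2.29% of all UMIs in TPH1 only cells of WT, 1.87% in HET and 1.62% in KO, against 0.935%, 0.872% and 0.987% in INS only cells.

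**Figure D1:**
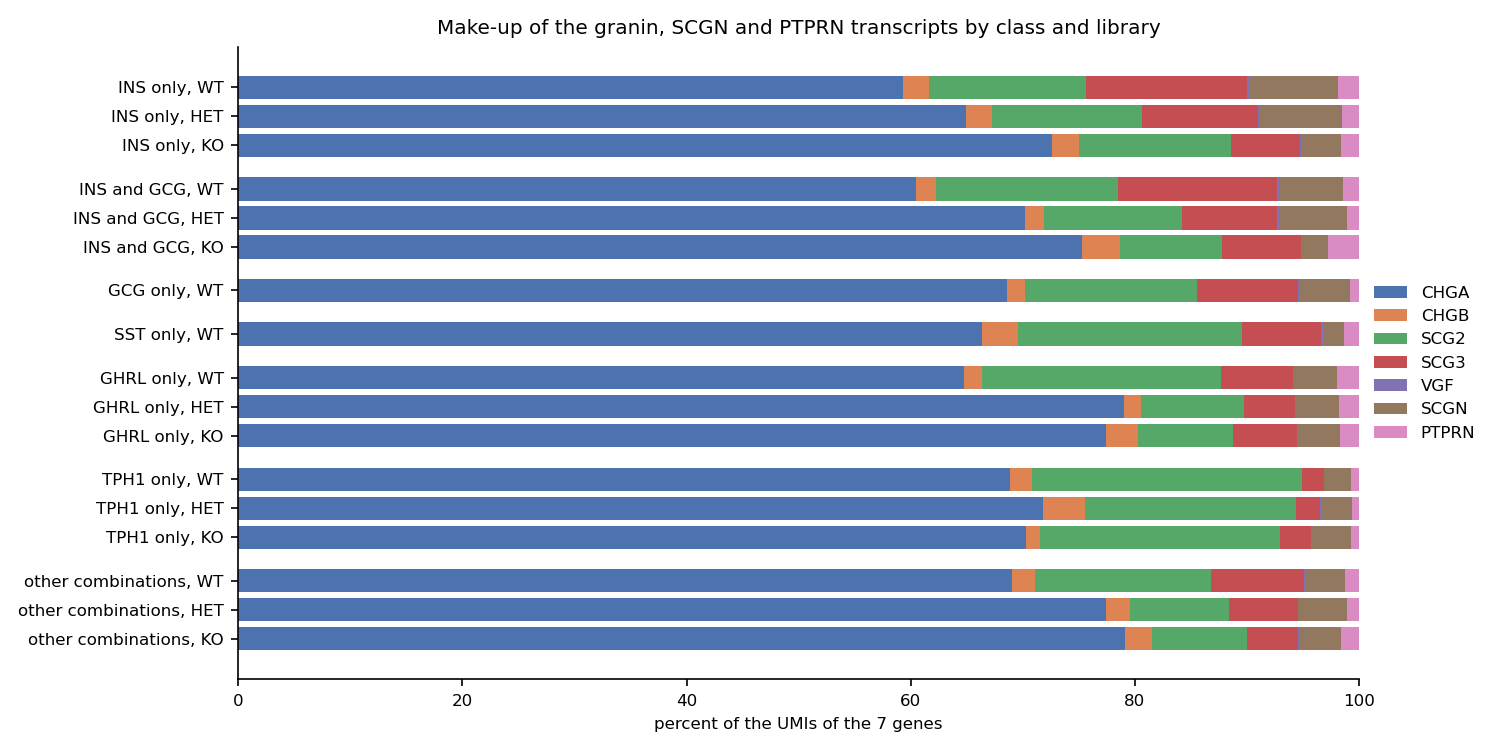
Share of the UMIs of the 7 genes (x axis, percent) taken by each gene in every hormone class sum of at least 20 cells, 1 bar per class and library. CHGA fills 59.3% to 79.1% of each bar, the SCG3 part of INS only cells narrows from 14.4% in WT to 6.13% in KO, and the SCG2 part is widest, at 24.0%, in TPH1 only cells of WT.

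The CHGA level was highest in TPH1 only cells in every library. It was 14046 CPM (13842 to 14253) in WT, 11825 (11568 to 12087) in HET and 10322 (10212 to 10433) in KO. The WT class order then went down through other combinations at 8941 CPM, INS and GCG at 7974 and GCG only at 7064. It went on through GHRL only at 5880 and INS only at 5437 to SST only at 3689. The counting intervals of neighbours in that order did not overlap. GHRL only rested on 22 cells. Without the top cell of each class GHRL only fell to 4983 CPM, below INS only at 5272, so this step was not stable. Within GCG only, the 48 cells with least GCG had 6.65-fold less CHGA per non-hormone UMI than the 29 cells with most GCG. The place of GCG only is thus that of a mixture, described with the GCG bins below. In INS only cells CHGA was near level between WT and HET (5452 CPM) and 1.23-fold higher in KO (6682 CPM, ratio 1.19 to 1.26). The TPH1 only level was 1.36-fold lower in KO than in WT (1.34 to 1.39). The gene lies at chr14:92923080-92935293 on the plus strand of GRCh38 (GENCODE 29).

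Among the 5 genes whose promoter was found in the RefSeq table (CHGA, SCG3, VGF, SCGN and PTPRN), the full cyclic AMP response element TGACGTCA, searched on both strands of the 250 bases before the start, occurred in CHGA and VGF. The 2 stretches of 30 bases are shown because the same 8 letters stand in the most and the least abundant of the genes; capitals mark the element, on GRCh38.p14, at chr14:92923085-92923114 on the plus strand and chr7:101165630-101165659 on the minus strand.
CHGA: ggcggcaccgcTGACGTCAtttccggggtc
VGF: tgaatgaacatTGACGTCAatggggcgggg
The element began 54 bases before the start in CHGA and 79 bases before it in VGF. Of 35116 promoter windows in the table, 578 (1.65%) held it. The CHGA stretch lies inside the gene as GENCODE 29 draws it, since the RefSeq start is further on. The shorter core TGACG, which every full element contains, was found in 21.2% of windows and, among the other 3 genes, in PTPRN. These are matches of letters and say nothing of binding.

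SCG2, secretogranin II, the precursor of secretoneurin, was second by share of UMIs in all but 1 of the 17 hormone class sums of at least 20 cells. The exception was INS only cells of WT, where SCG3 took 14.4% and SCG2 14.0%. In TPH1 only cells the SCG2 level was 4903 CPM (4783 to 5026) in WT, 3104 (2972 to 3239) in HET and 3136 (3076 to 3198) in KO. HET and KO overlapped each other and both lay below WT, by 1.58-fold and 1.56-fold. In the same libraries INS only cells held 1281, 1122 and 1246 CPM, so the TPH1 only level was 3.83-fold higher in WT, 2.77-fold in HET and 2.52-fold in KO. In GHRL only cells SCG2 was 1938 CPM (1780 to 2106) in WT, 645 (584 to 711) in HET and 774 (732 to 818) in KO, with separate intervals between WT and both others. The HET to WT ratio was 0.333 (0.292 to 0.379) and the KO to WT ratio 0.399 (0.361 to 0.442). The WT value rests on 22 cells, in which the 8 alpha cell markers summed to 48178 CPM, against 19222 in HET and 19836 in KO, and the part of this in the SCG2 result was not tested.

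Single cells showed that SCG2 was unevenly spread. The TPH1 only quartiles with the median between them were 7.02, 41.1 and 82.8 per 10000 UMIs in WT, 11.7, 28.8 and 63.5 in HET and 1.55, 21.2 and 56.2 in KO. Cells at 16 or more per 10000, a limit chosen after the spread was seen, made up 57 of 81 cells (70.4%, exact binomial 59.2 to 80.0) in WT and 28 of 40 (70.0%, 53.5 to 83.4) in HET. In KO they were 120 of 219 (54.8%, 47.9 to 61.5). Cells under 4 per 10000 numbered 17 in WT, 5 in HET and 68 in KO, and 7, 7 and 31 lay between the limits. The cells between the limits were thus fewer than those under 4 in WT and KO but not in HET. In GHRL only cells 11 of 22 WT cells passed 16 per 10000, against 3 of 40 in HET and 17 of 128 in KO.

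**Figure D2:**
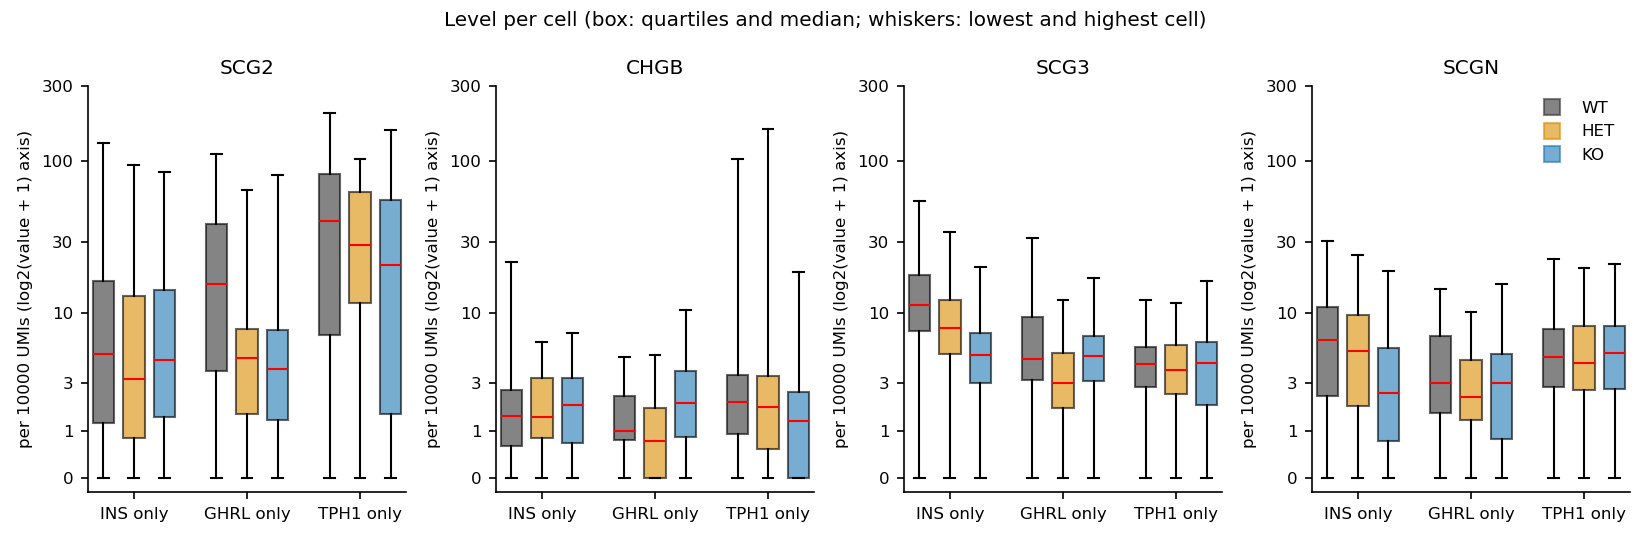
Level per cell of SCG2, CHGB, SCG3 and SCGN (y axis, per 10000 UMIs of the cell on a log2(value + 1) axis) in 3 hormone classes; boxes give quartiles and median, whiskers the lowest and highest cell, colours the library. The median of SCG3 in INS only cells is 11.5 in WT, 7.94 in HET and 5.02 in KO, while the TPH1 only medians lie between 3.79 and 4.37, and single TPH1 only cells reach 103 (WT) and 161 (HET) for CHGB.

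CHGB, chromogranin B, lies at chr20:5911430-5925361. Its level was close between libraries in INS only cells, at 217 CPM in WT, 196 in HET and 229 in KO, with overlapping intervals. In TPH1 only cells it was 403 CPM (369 to 439) in WT, 621 (563 to 684) in HET and 180 (165 to 195) in KO. The HET value comes largely from 1 cell, which held 68.2% of the CHGB UMIs of the 40 cells, and the top WT cell held 17.6%. Without the top cell of each library, an alternative chosen after seeing the data, the levels were 335 CPM in WT, 204 in HET and 169 in KO, so HET went from 1.54-fold higher to 1.64-fold lower than WT, and KO from 2.24-fold (1.99 to 2.53) to 1.97-fold lower. The medians per cell were 2.02, 1.81 and 1.29 per 10000 UMIs. In GHRL only cells CHGB was 143 CPM (103 to 194) in WT, 107 (83.1 to 136) in HET and 259 (235 to 285) in KO, 1.81-fold higher in KO than in WT (1.31 to 2.56) and 2.07-fold higher without the top cells.

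SCG3, secretogranin III, which binds CHGA and cholesterol-rich granule membranes, lies at chr15:51681353-51721031. Its class order differed from that of SCG2, with TPH1 only cells near the bottom. In WT it was 1877 CPM (1834 to 1919) in cells with INS and GCG, 1319 (1282 to 1357) in INS only, 929 (872 to 990) in GCG only, 586 (500 to 681) in GHRL only, 400.5 (367 to 437) in TPH1 only and 394 (337 to 457) in SST only cells. The last pair overlapped, and GHRL only did not overlap either of them. The GCG only value is that of a mixture here too. Its 48 cells with least GCG had 4.37-fold less SCG3 per non-hormone UMI than its 29 cells with most GCG. SCG3 took 14.4% of the UMIs of the 7 genes in INS only cells of WT and 1.96% in TPH1 only cells.

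In INS only cells SCG3 stood at 1319 CPM in WT, 866 (815 to 920) in HET and 564 (517 to 615) in KO, 3 values with separate intervals. It was 1.52-fold lower in HET (1.42 to 1.63) and 2.34-fold lower in KO (2.14 to 2.56) than in WT. With INS and GCG together it was 1249.6 CPM in HET and 630 (541 to 728) in KO, the latter from 20 cells and 2.98-fold below WT. TPH1 only cells held 400.5, 354 (311 to 402) and 417 (395 to 440) CPM, with overlapping intervals between WT and each edited library, and the KO to WT ratio was 1.04 (0.940 to 1.15). In GHRL only cells they were 586, 325 (282 to 373) and 519 (485 to 555) CPM, with HET lowest and KO within the WT interval.

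SCGN, secretagogin, lies at chr6:25652201-25701783. In INS only cells its level was 730 CPM (703 to 758) in WT, 617 (574 to 663) in HET and 332 (297 to 372) in KO. The 3 intervals were separate, and KO was 2.20-fold below WT (1.95 to 2.48). TPH1 only cells held 503, 463 and 506 CPM, and the KO to WT ratio was 1.01 (0.917 to 1.10). GHRL only cells were at 356, 275 and 340.5 CPM, again with KO inside the WT interval. In cells with INS and GCG, HET stood above WT, at 896 against 756 CPM, whereas KO was at 209 CPM (159 to 269), 3.62-fold below WT. SST only cells of WT had the lowest SCGN level of the WT classes, 101 CPM (73.2 to 135).

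**Figure D3:**
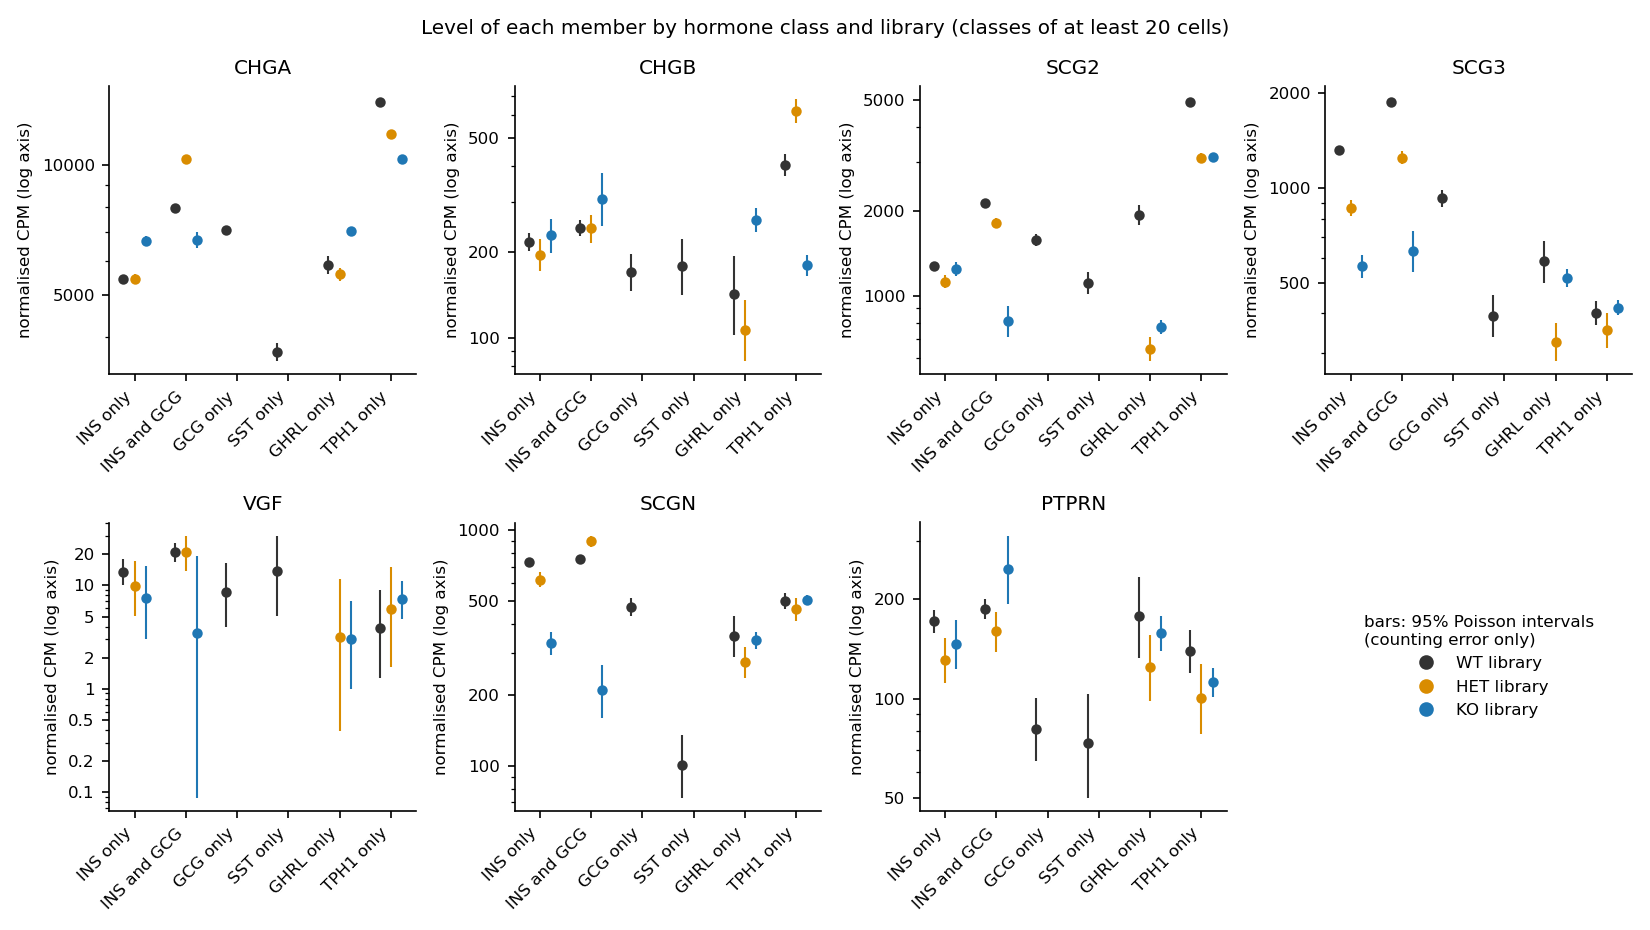
Level of each of the 7 genes (y axis, normalised CPM, log axis, different for each panel) by hormone class (x axis) and library (colour); bars are 95% Poisson intervals, and classes under 20 cells and a zero (VGF, GHRL only, WT) are not drawn. SCG3 and SCGN step down from WT to KO in INS only cells (1319 to 564 and 730 to 332 CPM) but not in TPH1 only cells (400.5 to 417 and 503 to 506 CPM).

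PTPRN, the granule membrane protein and autoantigen of type 1 diabetes, had a narrower range, from 73.2 CPM (50.1 to 103) in SST only cells of WT to 247 (193 to 312) in the 20 KO cells with INS and GCG. In INS only cells it was 172 CPM (158 to 186) in WT, 131 (111 to 153) in HET and 146 (123 to 173) in KO, where KO overlapped both others. VGF, a neuropeptide precursor first found as a gene induced by nerve growth factor, was the lowest of the 7. It had 181 UMIs in all hormone-positive WT cells, 52 in HET and 51 in KO, or 14.6 (12.6 to 16.9), 10.8 (8.07 to 14.2) and 6.75 (5.03 to 8.88) CPM. No VGF UMI was seen in GHRL only cells of WT, where 3 counts would be 10.5 CPM. VGF was below the minimum of 50 CPM in every class and is left out of the counts that follow.

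The first comparison asked how many of the remaining 6 genes differed by at least 2-fold between whole hormone-positive populations. Against WT, KO had 1 of 6 at least 2-fold lower, SCG3, and none higher. Of 3708 genes at 50 CPM or more in either library, 3.75% were at least 2-fold lower and 2.7% at least 2-fold higher. SCG3 was 1322 CPM in WT (1302 to 1342), 824 in HET (799 to 850) and 501 in KO (485 to 517), 2.64-fold lower in KO (2.55 to 2.73). HET against WT had 0 of 6 at least 2-fold apart, with 2.2% of 3594 genes so called, and KO against HET also had 0 of 6, with 2.41% of 3528 genes. The median log2 ratio of the 6 genes was -0.14 for KO and -0.18 for HET against WT, beside -0.02 and -0.05 over all genes. Both comparisons share the WT library.

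The make-up of the hormone-positive population moved with this result. TPH1 only cells, low in SCG3, were 219 of 561 hormone-positive cells in KO and 81 of 1014 in WT, while cells with INS and GCG, highest in SCG3, were 20 and 342. With INS only, GHRL only and TPH1 only cells weighing the same, the SCG3 log2 ratio of KO to WT was -0.62 in place of -1.40, and 0 of the 6 genes were 2-fold apart. Without scaling factors the median log2 ratio over all genes in this comparison moved from -0.02 to 0.15, and the ratios of CHGB, SCG2 and PTPRN turned from -0.12, -0.14 and -0.15 to 0.04, 0.03 and 0.02, so their directions are not given.

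Within INS only cells, 2 of 6 genes were at least 2-fold lower in KO than in WT (SCG3 and SCGN, above), where 4.73% of 3676 genes were. None of the 6 was at least 2-fold apart between HET and WT in this class, where 2.8% of 3572 genes were. The 10 beta cell markers, INS included, summed to 15714 CPM in WT, 13491 in HET and 9067 in KO INS only cells, the 7 epsilon markers to 353, 561 and 921 CPM, and the 8 alpha markers to 7027, 6464 and 9729 CPM. The beta sum includes INS, the gene that sets this class, and is not given without it. The part of these differences in the SCG3 and SCGN ratios was not tested, and the bins of INS amount below are a description only.

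Hormone UMIs were 1.89% of all UMIs in INS only cells of WT, 1.88% in HET and 1.03% in KO, so cells were also described in bins of INS amount. Between 25 and 50 INS UMIs per 10000, SCG3 per 10000 non-hormone UMIs was 9.12 in 53 WT cells, 6.94 in 23 HET cells and 5.57 in 39 KO cells. Between 50 and 100 it was 12.2 in 74 WT cells, 8.76 in 24 HET cells and 6.31 in 22 KO cells. KO was 1.64-fold (1.40 to 1.92) and 1.93-fold (1.64 to 2.30) below WT in these bins, and HET was 1.31-fold and 1.39-fold below WT. These ratios are without scaling factors, unlike the 2.34-fold of the whole class. Without scaling factors the whole class stood at 1346 CPM in WT and 605 in KO. In WT, SCG3 went on to 15.8 and 16.7 in the 2 bins from 100 to 400 INS UMIs per 10000, 1.84-fold (1.66 to 2.03) from the lowest to the highest bin.

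SCGN showed the same order of libraries in both bins that all libraries share. For WT, HET and KO it was 6.12, 4.50 and 3.92 per 10000 in the lower bin and 7.09, 5.32 and 3.43 in the upper bin. KO was 1.56-fold (1.30 to 1.89) and 2.07-fold (1.65 to 2.62) below WT. The KO to HET ratio was 0.872 (0.689 to 1.10) in the lower bin, an interval that includes 1, and 0.645 (0.493 to 0.838) in the upper bin. CHGA did not follow this order of libraries. CHGA was 67.0, 67.2 and 64.5 per 10000 in the lower bin and 43.3, 55.5 and 78.1 in the upper bin, where KO was 1.81-fold above WT (1.71 to 1.91). SCG2 in the same bins was 14.1, 11.8 and 14.2 and then 10.1, 16.2 and 17.1 per 10000.

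**Figure D4:**
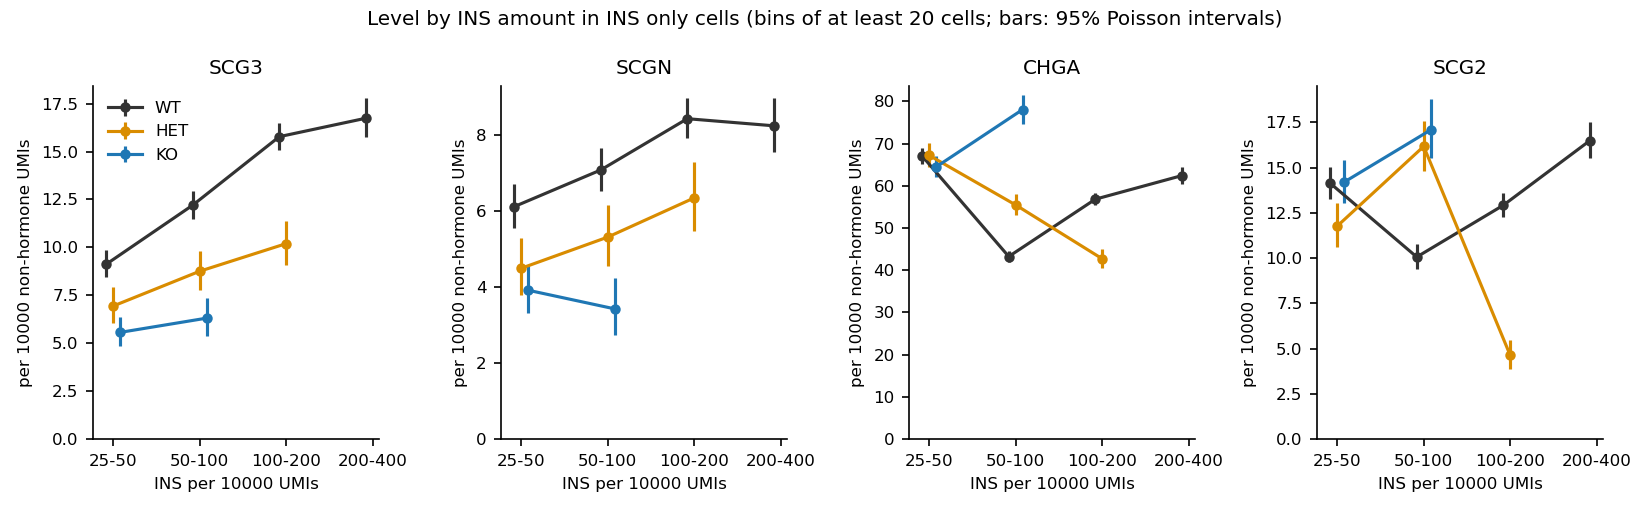
Level per 10000 UMIs that are not hormone UMIs (y axis) against the amount of INS (x axis, UMIs per 10000 of the cell) in INS only cells, by library, for bins of at least 20 cells with 95% Poisson intervals. For SCG3 and SCGN the WT points lie above the HET and KO points in both bins that all 3 libraries share, and for CHGA and SCG2 they do not.

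In TPH1 only cells 1 of 6 genes, CHGB, was at least 2-fold lower in KO than in WT, where 2.27% of 3613 genes were, and it fell short of 2-fold without the top cells as given above. Between HET and WT it was 0 of 6, where 5.67% of 3598 genes were 2-fold apart. In GHRL only cells SCG2 alone was at least 2-fold lower, in KO (4.33% of 3650 genes) and in HET (5.55% of 3622 genes). Over the INS only, GHRL only and TPH1 only classes, 4 of 18 pairs of gene and class were therefore 2-fold apart between KO and WT, and each was lower in KO. Among the 20 KO cells with INS and GCG, SCG2, SCG3 and SCGN were at least 2-fold below WT, 3 of 6 genes, where 9.81% of 3751 genes were.

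**Figure D5:**
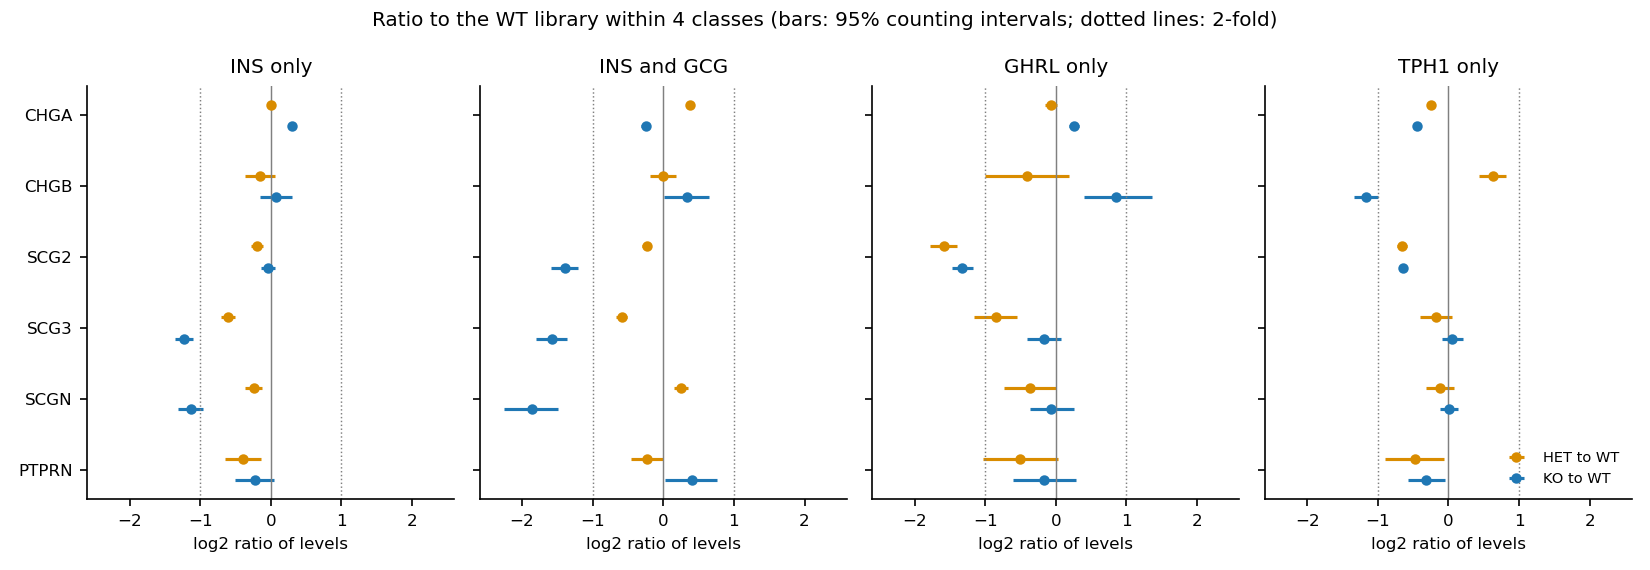
Log2 ratio of the level to WT (x axis) for 6 genes in 4 hormone classes, HET in orange and KO in blue, with 95% counting intervals; dotted lines mark 2-fold. KO points of SCG3 and SCGN lie beyond 2-fold below WT in INS only and INS and GCG cells and near 0 in GHRL only and TPH1 only cells, where instead SCG2 (both libraries, GHRL only) and CHGB (KO, TPH1 only) lie there.

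Cells with endocrine transcription factors but no hormone class numbered 1029 in WT, 700 in HET and 1026 in KO. They held CHGA at 3573 CPM in WT, 1420.3 in HET and 2434 in KO and SCG2 at 1473, 544 and 1142 CPM. The 5 genes above 50 CPM there (CHGA, CHGB, SCG2, SCG3 and SCGN) were each at least 2-fold lower in HET than in WT, by 2.20-fold to 2.71-fold, where 1.69% of 3725 genes were. PTPRN, under that limit, was at 30.3 CPM in WT, 10.2 in HET and 31.5 in KO. None of the 5 was 2-fold apart between KO and WT, where 1.61% of 3719 genes were. The 5 endocrine factors that chose these cells (NEUROD1, INSM1, ISL1, RFX6 and NKX2-2) summed to 756 CPM in WT, 492 in HET and 740 in KO, and the part of that difference in the result was not tested. Of these cells, 286 in WT (27.8%, 25.1 to 30.6), 117 in HET (16.7%, 14.0 to 19.7) and 313 in KO (30.5%, 27.7 to 33.4) had CHGA at 25 or more per 10000 UMIs.

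In GCG only cells of WT, the amount of GCG and the depth moved together. The 48 cells with 25 to 50 GCG UMIs per 10000 had a median of 1878.5 UMIs, and 20 of them had no UMI of the 5 endocrine factors. The 29 cells at 400 or more had a median of 14292 UMIs and none lacked such a UMI. CHGA per 10000 non-hormone UMIs was 22.2 in the first and 148 in the second, 6.65-fold apart (6.16 to 7.18), SCG2 was 6.95 and 24.1, and SCG3 was 3.37 and 14.7. Depth and GCG amount could not be told apart here. In 2 runs SCG2 was at least 2-fold lower in the top bin than in the lowest, without a steady fall. For GHRL only cells of KO it was 19.2 per 10000 non-hormone UMIs at 25 to 50 GHRL UMIs per 10000 and 4.67 at 400 or more, 4.11-fold lower (3.41 to 4.98). The bins between held 5.10, 7.98 and 7.17. For INS only cells of HET it was 11.8 at 25 to 50 INS UMIs per 10000 and 4.63 at 100 to 200, 2.54-fold lower (2.09 to 3.11), but 16.2 at 50 to 100. Leaving out the top cell took the SCG2 UMIs of these classes from 1271 to 1060 and from 1370 to 1157, and the runs were not repeated without it. No such run could be made for GHRL only cells of WT or HET, whose bins held under 20 cells. Of 30 runs of gene, hormone and library without VGF, 8 differed by at least 2-fold between their lowest and highest bin, namely 6 in GCG only cells of WT and these 2 of SCG2. The share of all genes that differed as much between bins was not counted, so this number is not read as particular to these genes. With cells limited to 3000 UMIs or more and 10% mitochondrial UMIs or less this was 0 of 6, since only the INS run of WT then had more than 1 bin of 20 cells.

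Of a list of 42 genes of granule formation, loading and release, chosen with earlier results known, 36 were at 20 CPM or more in hormone-positive cells of KO or WT. In KO, 3 of these exceeded WT by 2-fold or more, beside 2.84% of 7329 genes, and 5 were lower by as much, beside 4.04%. The 3 higher were SLC18A1, a vesicular monoamine transporter (5.82 CPM in WT and 37.6 in KO, 6.46-fold, 4.97 to 8.49), RAB27A, a granule docking GTPase (2.61-fold), and SYT13, a synaptotagmin (2.09-fold). SLC18A1 is also among the enterochromaffin markers, and TPH1 only cells, a larger share of KO than of WT as given above, held 211 of its 284 UMIs in KO and 43 of 72 in WT. Within TPH1 only cells its level was 33.4 CPM in WT and 64.6 in KO, 1.93-fold higher (1.39 to 2.75), and in TPH1 only cells RAB27A and SYT13 had KO to WT ratios of 1.36 (0.997 to 1.87) and 0.927 (0.807 to 1.07). The 3 lowest ratios were those of SLC30A8, the granule zinc transporter (610.3 against 5.43 CPM, 112-fold, 82.8 to 157), SCG5, the 7B2 chaperone of prohormone convertase 2 (1759 against 305 CPM, 5.76-fold, 5.52 to 6.02), and CAMK2N1, an inhibitor of calcium/calmodulin-dependent kinase II (2.28-fold). The median log2 ratio was -0.28, beside -0.01 over all genes. In HET, 0 of 34 were higher and 1, SLC30A8, was lower (2.09-fold), where 0.753% and 1.41% of 7170 genes were, with a median of -0.32 beside -0.04. Within INS only cells, 1 of 35 was higher and 4 were lower in KO, beside 3.01% and 5.91% of 7270 genes, and within TPH1 only cells 0 of 35 and 1, beside 2.58% and 3.54% of 7298 genes.

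SCG5, also called secretogranin V, is not among the 7 genes and, like SCG3, was higher in INS only than in TPH1 only cells in each library. In INS only cells it was at 1733 CPM in WT, 1185 in HET and 439 in KO, 3.94-fold lower in KO (3.57 to 4.37). TPH1 only cells held it at 229, 134 and 174 CPM. The prohormone convertase genes PCSK1 and PCSK2 in INS only cells were at 266 and 162 CPM in WT and at 247 and 129 CPM in KO. Of 8 calcium-binding genes listed beside SCGN, 6 were measured in hormone-positive cells for KO against WT and 5 for HET against WT. Of these 1 was at least 2-fold lower in each comparison, CALB2 (calretinin), where 4.04% and 1.41% of genes were. CALB2 was at 352 CPM in WT, 123 in HET and 151 in KO. It was 2.33-fold below WT in KO (2.19 to 2.49), and the HET to WT ratio was 0.349 (0.320 to 0.381). Among INS only cells 1 of 6 was lower in KO (CALB2) and 2 of 6 in HET (CALB2 and CALB1), beside 5.91% and 2.74% of genes. In TPH1 only cells none of 5 was 2-fold apart in KO and 1 of 5, CALB2, was lower in HET, beside 6.15%. Among GHRL only cells 1 of 5 was higher in KO and in HET, CALB1 (calbindin), beside 10.5% and 9.98% of genes, with ratios to WT of 4.89 (1.29 to 41.4) and 3.21 (0.738 to 29.1) from a WT level under that of 3 counts.

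The genes nearest in pattern were found by Pearson correlation of log2(CPM + 1) over 23 class and library sums, which share libraries and include cells with almost no granin, so the values describe these sums and carry no test. SCG3 lay nearest to MIR7-3HG (0.99), KCNK16 (0.98) and ABCC8 (0.98), and SCG2 to FEV (0.95), TAGLN3 (0.94) and NEGR1 (0.94). CHGA lay nearest to NEURL1, NEUROD1 and SYT5 (0.98 each), CHGB to NEURL1 (0.98), CDK5R2 and SYT5 (0.97 each), SCGN to GNG4 (0.96), KCNB2 and CADPS (0.95 each), PTPRN to SYP and CNIH2 (0.99 each) and TUNAR (0.98), and VGF to CELF4 (0.89), ESRRG (0.88) and SLC17A6 (0.87). Between CHGA and SCG3 the correlation was 0.94 over all 23 sums and -0.03 over the 17 hormone class sums, between SCG3 and SCGN 0.94 and 0.62, and between CHGA and SCG2 0.95 and 0.65.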

How the data were processed

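The deposited values are raw UMI counts per gene and barcode, with Cell Ranger 6.1.2 named as the software per the file headers and GRCh38 named per the submitters' processing notes. The sources used here do not give the annotation release, the authors' barcode filter or the read end of the kit. Barcodes were kept with at least 1000 UMIs, 500 genes and at most 20% mitochondrial UMIs (8662 WT, 8468 HET and 8785 KO). The automatic threshold of Scrublet (scanpy 1.11.5) called 0 barcodes in each library, so it did not work, and the 8% of cells with the highest scores were removed in each, among them 15.0%, 17.9% and 13.0% of hormone-positive cells. Counts were summed per class and library and scaled to CPM with TMM factors over all sums of at least 20 cells (edgeR 4.0.16, R 4.3.3). With 1 library per genotype no test was run. Levels have exact Poisson, ratios exact conditional binomial and shares Clopper-Pearson intervals at 95%. A gene was counted at 50 CPM in either library and 2-fold, and in the 2 gene lists at 20 CPM. Endocrine cells without a hormone class had at least 2 of 5 endocrine factors and at least 3 of their UMIs. The 7 genes are all named. Of the lists, at most the 3 largest ratios in each direction were named (SCG5, PCSK1, PCSK2 and CALB1 within classes were chosen after their values were seen), and of all genes the 3 nearest in pattern to each of the 7, hormones that define the classes left out. Hormone UMIs are those of 23 hormone genes. The ratio and its interval were tested on simulated counts with Poisson error only, which leaves out differences between cells and between libraries. The genes, classes and lists were chosen with earlier results of these data known. Promoter windows are from RefSeq on GRCh38.p14 and gene positions from GENCODE 29.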

Additional observations from a re-analysis of the deposited data

Results flagged for a closer look

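CHGA and CHGB had KO to WT ratios on opposite sides of 1 in different hormone classes, with counting intervals that did not include 1. The difference between the classes was not tested, since each has 1 library per genotype. For CHGA the ratio was 1.23 (1.19 to 1.26) in INS only cells and 1.20 (1.14 to 1.26) in GHRL only cells, against 0.735 (0.722 to 0.748) in TPH1 only cells. Cells with INS and GCG were also lower in KO, at 6712 CPM (6415 to 7018) in 20 cells against 7974 (7887 to 8062) in WT, with HET at 10336. Other combinations were higher in KO, at 9784 CPM against 8941 in WT. For CHGB it was 1.81 (1.31 to 2.56) in GHRL only cells, where WT had 22 cells, against 0.446 (0.396 to 0.503) in TPH1 only cells.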

How the results depend on the processing

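No paired analysis was possible because each genotype had 1 library, and for the same reason no library could be left out. Settings compared with the reported ones were CPM without scaling factors, CPM without hormone UMIs, doublets kept, at least 3000 UMIs with at most 10% mitochondrial UMIs, hormone limits of 10 or 50 per 10000 UMIs (TPH1 at 2 or 5), a mean over cells, the level in other cells subtracted, classes weighing the same (inclusive classes within classes) and, chosen after seeing the data, leaving out the top cell of each gene. The automatic doublet threshold called 0 cells, so it gave no setting of its own. With classes weighing the same, the KO against WT count in hormone-positive cells was 0 in place of 1, and the VGF log2 ratio was 0.0406 in place of -1.12. With VGF counted, the cell filter of 3000 UMIs left 1 of 7 runs along hormone amount at 2-fold or more, in place of 11 of 34. Without VGF it left 0 of 6 in place of 8 of 30, since fewer bins held 20 cells. These runs again have no count over all genes beside them. The log2 ratio of KO to WT in INS only cells ran from -1.37 to -0.997 for SCG3 and from -1.24 to -0.88 for SCGN over 10 settings, and each fell short of 2-fold under 1 of them (hormone limit of 10, and mean over cells). SCG2 in GHRL only cells ran from -1.89 to -1.09, and CHGB in TPH1 only cells from -1.42 to -0.98, short of 2-fold under 2 settings (doublets kept, and without the top cells). Inside single classes the count was 3 or 4 of 18, and 6 of 24 with inclusive classes. Inclusive classes share cells, with 420 WT cells meeting both the INS and the GCG limit, so their pairs are not separate. The share of all genes under these settings is not given. CHGA held the largest share in all sums under each setting run. Depth limits VGF most, with 51 to 181 UMIs per library in hormone-positive cells.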
